A study of Mus musculus with 7 samples.

Results

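Cytochromes P450 of families 1 to 4 are the haem enzymes that oxidise drugs, plant chemicals, steroids, bile acids and fatty acids. The genes described here are all those whose symbol starts with Cyp, a family number from 1 to 4, a subfamily letter and a gene number, among probe sets that the array's annotation pairs with a single symbol. That gave 69 genes in 20 subfamilies, of 19938 genes measured, each with 1 probe set. Another 7 probe sets carry several symbols that include such a gene and were left out of the comparisons. Close relatives within the Cyp2c, Cyp2d, Cyp3a and Cyp4a subfamilies have similar sequences, so a probe set named for one may also bind the transcript of another, and this was not tested.

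RNA came from 7 mouse intestinal samples on 1 array each, all on a mixed C57Bl6/129Sv background and 3 months old. Wild-type (WT) mice gave 1 control ileum, 1 control colon and 1 DSS colon, and Atg4b knock-out (KO) mice gave 1 control ileum, 1 control colon and 2 DSS colons. Dextran sulfate sodium (DSS), a polymer that injures the colonic epithelium, was given by mouth for 7 days, with water for the next 3 days before the mice were killed. Atg4b encodes a protease that processes the LC3 and GABARAP proteins of autophagy, and the series asked what its loss changes in chemically induced colitis. The labels do not say that each array is a separate animal, so a p-value measures the spread between these arrays. Of the 6 groups, 5 hold 1 array and have no spread of their own. The spread behind the DSS, tissue and genotype tests has 2 sources. It comes from the KO DSS pair and from the disagreement of the KO minus WT difference between conditions. Neither the control colons nor the ilea were replicated within a genotype.

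Several facts of the whole series bear on every result here. Values are log2 of the deposited probe-set intensity, and the lower quartile of all genes, used below as a mark of dim signal, lay between 5.71 and 5.87 on the 7 arrays. Atg4b was at 7.35 to 7.72 on the 3 WT arrays and at 5.39 to 5.45 on the 4 KO arrays. Xist, which coats the silenced X chromosome in females, read 5.19 to 5.52 on the 4 control arrays but 12.16 to 12.55 on the 3 DSS arrays. The Y-linked Eif2s3y ran the other way, 9.39 to 9.77 against 4.28 to 4.39. The labels call WT ileum and WT control colon female and WT DSS colon male, so all 3 WT arrays went against their labelled sex and the 4 KO arrays did not. DSS and the sex shown by these markers therefore cannot be told apart, and some mouse Cyp genes are known to differ in male and female liver. The mean of 10 epithelial genes was between 12.17 and 12.56 on all arrays. That of 9 colonocyte genes was 11.24 and 11.21 in WT and KO control colon. It was 10.92, 11.06 and 10.71 in WT DSS and KO DSS replicates 1 and 2. By the test used below 3 of the 9, Aqp8, Slc26a2 and Slc26a3, fell with DSS, where 3.43% of all genes did, and 0 rose. Some others had higher values without passing. Slc9a3 read 9.22 and 9.31 in WT and KO control colon and 9.78, 11.45 and 10.02 in the same DSS arrays. Scnn1g read 7.15 and 7.58, then 8.57, 7.19 and 9.04. The mean of 12 smooth muscle genes was 11.18 and 11.14 in the WT and KO control colons. After DSS it was 9.13 in the WT array and 10.62 and 9.71 in KO replicates 1 and 2, with no gene of the list below the lower quartile. The part of colonocytes and muscle in the DSS results below was not tested. These are whole-tissue samples, so fewer cells of a type and less RNA per cell cannot be told apart.

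A cytochrome P450 holds a haem iron that splits molecular oxygen and puts 1 oxygen atom into its substrate, with electrons supplied by the reductase Por and by cytochrome b5. In the gut these enzymes sit mostly in the absorptive epithelium, where they meet food and bacterial chemicals first. Families 1 to 3 mostly handle foreign compounds and respond to the receptors Ahr, Pxr (Nr1i2) and Car (Nr1i3), whereas family 4 hydroxylates fatty acids and eicosanoids such as leukotriene B4. Members of the Cyp2c and Cyp2j subfamilies also oxidise arachidonic acid.

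The Cyp2c genes carried the widest differences between arrays, and the sequences upstream of 4 of them are shown because they divide into 2 patterns. Cyp2c55 and Cyp2c65, neighbours at one end of the group on chromosome 19, were low in only some of the DSS arrays. Cyp2c67 and Cyp2c68, neighbours further along, were low in all of them. The 250 bases before the RefSeq start of transcription (build GRCm38.p6) are written in the direction of the gene, with matches to the 7 motifs searched in capitals.
Cyp2c55, chr19:39006769-39007018, plus strand: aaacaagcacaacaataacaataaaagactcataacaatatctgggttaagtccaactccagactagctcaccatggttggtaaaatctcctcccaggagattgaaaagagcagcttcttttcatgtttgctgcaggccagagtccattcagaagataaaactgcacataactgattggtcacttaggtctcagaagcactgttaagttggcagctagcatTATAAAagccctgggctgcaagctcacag
Cyp2c65, chr19:39060756-39061005, plus strand: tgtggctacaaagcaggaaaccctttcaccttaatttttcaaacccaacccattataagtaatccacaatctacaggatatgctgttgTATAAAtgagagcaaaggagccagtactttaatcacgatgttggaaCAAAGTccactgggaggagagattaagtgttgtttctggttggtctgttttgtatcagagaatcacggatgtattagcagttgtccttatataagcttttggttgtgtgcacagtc
Cyp2c67, chr19:39649043-39649292, minus strand: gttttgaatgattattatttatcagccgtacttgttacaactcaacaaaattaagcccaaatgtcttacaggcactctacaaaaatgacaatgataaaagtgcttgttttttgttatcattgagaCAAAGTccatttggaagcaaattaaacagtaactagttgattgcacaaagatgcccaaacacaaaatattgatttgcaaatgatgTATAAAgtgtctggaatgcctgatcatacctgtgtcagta
Cyp2c68, chr19:39741102-39741351, minus strand: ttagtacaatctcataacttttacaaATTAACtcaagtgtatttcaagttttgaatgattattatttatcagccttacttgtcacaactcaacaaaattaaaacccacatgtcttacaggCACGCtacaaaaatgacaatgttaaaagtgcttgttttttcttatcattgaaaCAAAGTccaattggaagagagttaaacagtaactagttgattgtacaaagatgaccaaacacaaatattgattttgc
Of the 69 genes, 53 had an upstream sequence in the RefSeq table. The motifs, searched on both strands, were the Ahr response element core GCGTG, the nuclear receptor half-site AGGTCA, the HNF1 half-site GTTAAT, the HNF4 core CAAAGT, the AP-1 site TGANTCA, the TATA box TATAAA and the Cdx2 core TTTATG. Cyp2c65, Cyp2c67 and Cyp2c68 each hold CAAAGT, 116, 125 and 77 bases before the start, and Cyp2c55 has no match to it in this window. Cyp2c55 has a TATAAA 29 bases before the start, Cyp2c65 has one at 162 and Cyp2c67 one at 40. The 2 sequences of Cyp2c67 and Cyp2c68 were 93.0% identical over 201 aligned bases. Those of Cyp2c55 and Cyp2c65 were 71.8% identical over 216, and those of Cyp2c65 and its next neighbour Cyp2c66 94.1% over 221. In Cyp2c67 and Cyp2c68 the CAAAGT lies in the same matching stretch. The Cyp2c68 window ends ahead of the stretch that holds TATAAA in Cyp2c67. The 125 against 77 bases, and the lack of TATAAA in the Cyp2c68 window, therefore depend on where RefSeq places each start. CAAAGT was found in 20 of the 53 Cyp sequences (37.7%) and in 12.5% of all 27018 upstream sequences. TATAAA was found in 21 (39.6%) against 12.97%, AGGTCA in 14 (26.4%) against 13.8% and GCGTG in 11 (20.8%) against 28.2%. TTTATG was in 7 (13.2%) against 11.1%, TGANTCA in 4 (7.55%) against 6.87% and GTTAAT in 3 (5.66%) against 6.52%. Related genes share these sequences by descent, so the 53 are not independent of each other, and a match is a description of letters.

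Many members gave little signal in the intestine. On all 7 arrays 31 of the 69 genes (44.9%) lay below the lower quartile of all genes, compared with 21.1% of all genes, and 24 lay above it on every array. The 31 include Cyp1a1 and Cyp1a2, enzymes induced through Ahr, all 5 Cyp4a genes, fatty acid hydroxylases induced through Ppara, both Cyp2a genes, 3 of 5 Cyp2b genes and 6 of 13 Cyp2c genes. Their values ran from 3.87 to 5.86, and none differed by more than 0.72 between its highest and lowest array, that of Cyp3a44. Members with clear signal on every array included Cyp3a13, a Cyp3a enzyme of the intestine (9.52 to 11.32), Cyp2s1, an epithelial enzyme (9.28 to 10.70), and the arachidonic acid epoxygenase Cyp2j6 (9.18 to 9.99). Cyp4f13 (9.25 to 10.57), Cyp4f14 (8.53 to 12.28) and Cyp2d22 (8.36 to 10.24) did too. Cyp2r1, which hydroxylates vitamin D, stayed between 6.16 and 6.84. The highest and lowest arrays differed by more than 1 log2 unit for 28 members (40.6%), against 18.0% of all genes. They differed by more than 4 units for 9 members, namely Cyp2c55, Cyp2c65, Cyp2c68, Cyp2d12, Cyp2d26, Cyp2d34, Cyp2e1, Cyp2f2 and Cyp3a25.

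In DSS colon 11 of the 69 genes fell and none rose. In limma, at a Benjamini-Hochberg adjusted p under 0.05 over all genes, 15.9% of the members were lower where 3.43% of all genes were, and 0 were higher where 7.2% of all genes were. At an unadjusted p under 0.05 there were 22 members (31.9%), against 26.3% of all genes. The fitted differences of 54 members were negative, with a median of -0.19 against -0.01 over all genes. All 3 DSS arrays lay below both control colons for 29 members (42.0%, background 18.0%) and above both for 3 (4.35%, background 22.1%). Taken pair by pair, with 1 array against 1 array and no test, 12 members were more than 2-fold lower in WT DSS than in WT control colon (background 3.57%) and 1, Cyp4f18, was higher (background 3.52%). Against KO control colon, KO replicate 1 had 7 lower (background 1.16%) and 2 higher, Cyp2c65 and Cyp2e1 (background 2.43%). KO replicate 2 had 9 lower (background 1.78%) and 0 higher (background 3.34%).

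Cyp2f2, the enzyme that activates naphthalene in the airway, was at 10.90 in WT and 10.23 in KO control colon. In DSS colon it was at 7.13 in WT, 7.30 in KO replicate 1 and 6.93 in KO replicate 2. It was high in both control colons and low in all 3 DSS colons, with a gap of almost 3 log2 units between the groups. The fitted difference was -3.41 ± 0.19 (SE, 3 DSS against 2 control arrays, limma adjusted p = 0.00058), a 10.6-fold fall. Cyp2d12, a member of the Cyp2d group on chromosome 15, stood at 8.93 and 9.27 in WT and KO control colon. It read 6.17 in WT DSS colon and 5.25 and 5.77 in KO DSS replicates 1 and 2, of which replicate 1 lay below the lower quartile of its array and replicate 2 close to it. The groups did not overlap, and the difference was -3.33 ± 0.26 (limma adjusted p = 0.0020). Cyp2c68 was at 10.45 and 10.15 in WT and KO control colon and at 7.20 in WT DSS, 6.56 in KO replicate 1 and 6.404 in KO replicate 2. Its difference was -3.59 ± 0.45 (limma adjusted p = 0.0080), 12.04-fold, and it too separated the groups in every array. Cyp2c67 was at 7.30 and 7.27 in the WT and KO control colons and at 4.64, 4.69 and 4.996 in WT DSS, KO replicate 1 and KO replicate 2. All 3 DSS values lay below the lower quartile of their arrays, and the difference was -2.54 ± 0.14 (limma adjusted p = 0.00058).

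**Figure D1:**
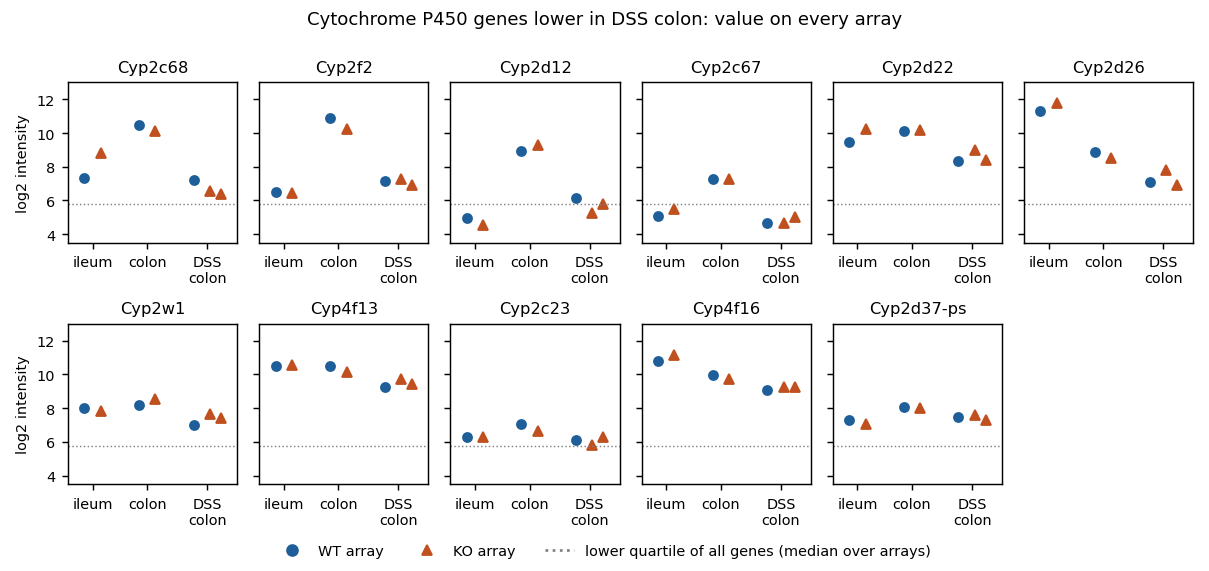
Log2 intensity of the 11 members that fell in DSS colon, 1 panel per gene, with control ileum, control colon and DSS colon on the x axis, circles for WT and triangles for KO arrays, and a dotted line at the lower quartile of all genes. Each point is 1 array, and in each panel all 3 DSS points lie below both control colon points.

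The other 7 members that fell did so by less. Cyp2d22, the mouse Cyp2d enzyme most often compared with the human drug-metabolising one, was at 10.13 and 10.17 in the control colons and at 8.36 in WT DSS, 8.97 in KO replicate 1 and 8.42 in KO replicate 2 (-1.63 ± 0.21, limma adjusted p = 0.0086). Cyp2d26 read 8.85 and 8.55 in the control colons and 7.07, 7.80 and 6.90 in the same 3 DSS arrays (-1.47 ± 0.29, limma adjusted p = 0.0278). Cyp2w1, an enzyme known from developing colon and from colon tumours, read 8.20 and 8.55, then 6.99, 7.68 and 7.40 (-1.06 ± 0.19, limma adjusted p = 0.0208). In all 3 genes the WT DSS array or KO replicate 2 was lowest, and KO replicate 1 lay nearest to the controls. Smaller falls were those of Cyp4f13 (-0.85 ± 0.18), Cyp2c23, an epoxygenase (-0.73 ± 0.18, limma adjusted p = 0.0486), Cyp4f16 (-0.65 ± 0.15) and the pseudogene Cyp2d37-ps (-0.56 ± 0.12). These depended on the fit used. Of 18 fits, the main one included, Cyp4f13 passed in 10, Cyp4f16 in 9, and Cyp2c23 and Cyp2d37-ps in 8 each. None of them passed with the colon arrays alone. For the DSS difference that fit is the same as leaving out either ileum array. Each member has 1 probe set, so averaging or testing all probe sets leaves its difference as in the main fit. The 18 fits are therefore not 18 separate checks. Cyp2s1 (-0.91 ± 0.22, limma adjusted p = 0.0509) and Cyp3a13 (-0.64 ± 0.16, limma adjusted p = 0.0527) lay just outside the threshold. Cyp2f2, Cyp2d12 and Cyp2c67 passed the threshold in every alternative fit in which they were tested. Without WT control colon, as without KO control colon, these were the 3 members called. Members called lower numbered 5 without WT DSS colon, 6 without KO DSS replicate 2, 7 without either ileum and 17 without KO DSS replicate 1. In the last of these fits 2 more, Cyp4f18 and Cyp4f40, were called higher. Calls over all genes moved as well, from 2120 with all arrays to 216 and 183 without WT and KO control colon. They numbered 526 without WT DSS colon, 800 without KO DSS replicate 2, 1617 without either ileum and 3549 without KO DSS replicate 1. With 1 residual degree of freedom in a 6-group model 4 were called.

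Within the Cyp2d subfamily the DSS differences were uneven. All 10 genes had negative fitted values, from -3.33 to -0.30, and 4 passed. Cyp2d34, the next measured gene after Cyp2d12 along chromosome 15, was at 10.08 and 9.91 in WT and KO control colon and at 9.71, 9.33 and 9.79 in WT DSS and KO DSS replicates 1 and 2. It was well above the lower quartile in all 5 colon arrays, and its difference of -0.33 ± 0.18 did not pass (limma adjusted p = 0.317). Cyp2d9, a steroid hydroxylase of male liver, stood at -0.82 ± 0.22 (limma adjusted p = 0.0689). Cyp2d13, annotated in RefSeq as a transcribed pseudogene, read 8.82 and 8.65 in the control colons and 8.004 in WT DSS. Its KO DSS replicates differed, with 6.79 in replicate 1 and 8.06 in replicate 2. Its fitted difference of -1.08 ± 0.37 did not pass (limma adjusted p = 0.122), whereas without KO DSS replicate 1 it was -0.70 ± 0.13 and did (limma adjusted p = 0.0133).

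Cyp2c55 and Cyp2c65 separated the DSS arrays from each other. Cyp2c55, a colonic enzyme that oxidises arachidonic acid, was at 10.68 in WT and 10.001 in KO control colon. In DSS colon it was at 4.81 in WT and 4.78 in KO replicate 2, both below the lower quartile, but at 9.69 in KO replicate 1. KO replicate 1 thus lay close to the KO control colon, 1.24-fold below it, and far above the other 2 DSS arrays. Over all arrays the DSS difference was -4.11 ± 1.40 and did not pass (limma adjusted p = 0.121), and without KO replicate 1 it was -5.55 ± 0.43 (limma adjusted p = 0.0010). Cyp2c65 read 7.26 and 6.498 in the WT and KO control colons. The DSS values were 5.31 for WT, 5.34 for KO replicate 2 and 9.72 for KO replicate 1. The first 2 of these were below the lower quartile of their arrays, while KO replicate 1 lay above both control colons, near the ileum values of 9.79 (WT) and 10.84 (KO). The DSS difference was -0.25 ± 1.27 with all arrays (limma adjusted p = 0.933) and -1.55 ± 0.37 without KO replicate 1 (limma adjusted p = 0.0338). Without KO replicate 2 its direction turned, to 0.63 ± 1.10 (limma adjusted p = 0.861). Cyp2c66 was near the lower quartile in colon and, of the colon arrays, highest in KO DSS replicate 1 (6.25), with 5.44 and 5.71 in WT and KO control colon, 5.76 in KO replicate 2 and 5.600 in the WT DSS array. Because Cyp2c65 and Cyp2c66 are close relatives, their probe sets may share signal, which was not tested.

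**Figure D2:**
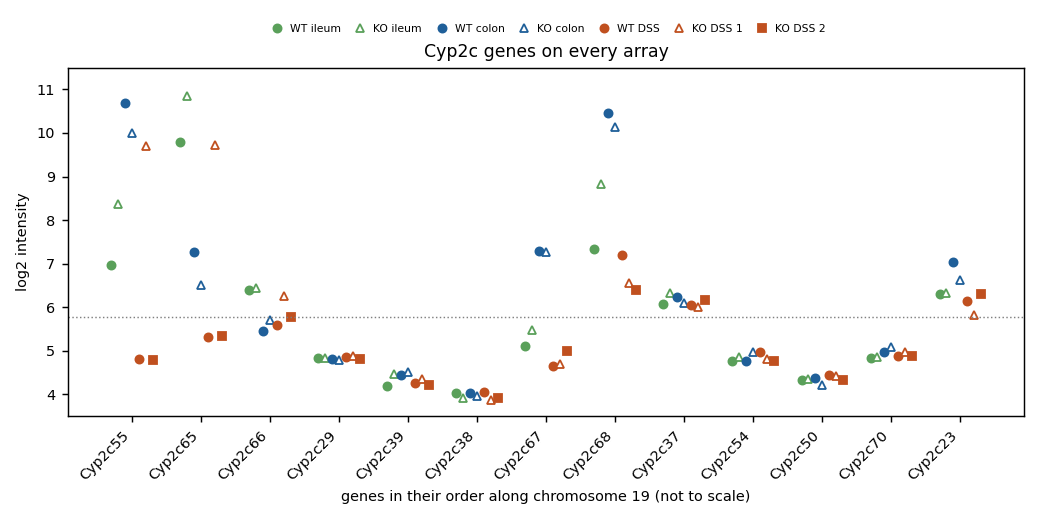
Log2 intensity of the 13 Cyp2c genes on each of the 7 arrays, with genes on the x axis in their order along chromosome 19 (not to scale), a separate symbol for each array, and a dotted line at the lower quartile of all genes. For Cyp2c55 and Cyp2c65 the point of KO DSS replicate 1 stands above 9 while the other 2 DSS arrays are below 6, and for Cyp2c67 and Cyp2c68 all 3 DSS arrays are low.

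Between the 2 KO DSS arrays, 5 of 69 members (7.25%) differed by more than 2-fold, against 1.24% of all genes, a comparison of 1 array with 1 array that has no test. Cyp2c55, Cyp2c65, Cyp4f14 (10.04 against 8.53) and Cyp2e1 (6.84 against 5.75) were higher in replicate 1 (background 0.747%), and Cyp2d13 was lower (background 0.497%). Cyp4f14 hydroxylates leukotriene B4, and its WT DSS value of 8.94 lay near those of WT and KO control colon (8.83 and 9.38). The mean of 7 adipocyte genes was 6.56 in the WT DSS array and 7.51 and 6.74 in KO replicates 1 and 2. The smooth muscle mean was 10.62 in KO replicate 1 and 9.71 in KO replicate 2, and the mean of 12 small intestinal enterocyte genes was 6.98 and 6.79. Fabp2, an enterocyte gene outside that list (10.68 against 7.78), and Alpi of the list (8.83 against 6.21) were higher in KO replicate 1. They were picked after their values were seen, and read 7.73 and 6.17 in the WT DSS array. Other genes of the list went both ways. Slc5a1 (9.62 against 10.31) and Rbp2 (7.84 against 8.12) were lower in KO replicate 1, and Apob (9.54 against 9.28) and Lct (6.53 against 6.10) were higher. Whether tissue composition takes part in these differences was not tested.

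Cyp4f18, which clears leukotriene B4 in neutrophils and other myeloid cells, was among the 3 members whose DSS arrays all lay above the control colons, with Cyp4f40 and the dim Cyp2c29. Cyp4f18 read 6.51 in WT and 7.15 in KO control colon and 7.92, 7.44 and 7.66 in WT DSS and KO DSS replicates 1 and 2. Its difference of 0.81 ± 0.24 did not pass (limma adjusted p = 0.0847), and without KO DSS replicate 1 it was 0.96 ± 0.22 (limma adjusted p = 0.0279). The mean of 9 neutrophil genes was 6.22 and 6.40 in WT and KO control colon and 8.22, 7.81 and 8.21 in the same DSS arrays. Ly6g, 1 of the 9, raises each of these means. It read 12.50 and 12.48 in WT and KO control colon, against 5.11 and 4.95 in WT and KO ileum. Below the lower quartile lay 6 of the 9 genes in WT control colon, 4 in KO control colon, and 1 or 2 on each DSS array. The part of neutrophils in the Cyp4f18 values was not tested. Cyp4f40 stood at 0.49 ± 0.18 (limma adjusted p = 0.141), and at 0.62 ± 0.15 without KO DSS replicate 1 (limma adjusted p = 0.0344).

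Several members differed between ileum and colon. In limma 19 of 69 genes (27.5%) differed between control ileum and control colon, against 9.16% of all genes, with 10 higher in ileum (14.5%, background 5.94%) and 9 lower (background 3.22%). Both ileum arrays lay above both control colons for 19 members (27.5%, background 25.8%) and below both for 20 (29.0%, background 28.2%). The 10 higher in ileum were Cyp3a25, Cyp4f14, Cyp2d26, Cyp4b1, Cyp2u1, Cyp1b1, Cyp4f40, Cyp4f16, Cyp2c66 and Cyp2j6. The 9 lower were Cyp2d12, Cyp2d34, Cyp2f2, Cyp2d13, Cyp2c68, Cyp2c67, Cyp2d10, Cyp2d9 and Cyp2d37-ps. The median difference of the 69 members was -0.06, against -0.02 over all genes. This comparison and the DSS comparison share the same 2 control colon arrays, so members high in control colon enter both.

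Cyp3a25, a Cyp3a enzyme of liver and gut, was at 9.30 in WT and 10.01 in KO ileum and at 5.04 and 5.38 in WT and KO control colon, below the lower quartile there. The ileum exceeded the colon by 4.45 ± 0.23 log2 units (SE, 2 against 2 arrays, limma adjusted p = 0.00014). Cyp4f14 was at 12.11 and 12.28 in WT and KO ileum and at 8.83 and 9.38 in the colons (3.09 ± 0.44, limma adjusted p = 0.0078). Cyp2d26 was at 11.31 and 11.75 in WT and KO ileum, against 8.85 and 8.55 in the colons (2.83 ± 0.31, limma adjusted p = 0.0031). Each of these genes kept the 2 tissues apart in both genotypes. Cyp4b1, which oxidises fatty acids and some plant toxins, read 8.15 in WT and 9.38 in KO ileum and 6.57 and 6.58 in WT and KO colon (2.19 ± 0.28, limma adjusted p = 0.0051). Cyp2u1, a fatty acid hydroxylase, read 8.002 and 8.51 in ileum and 6.69 and 6.62 in colon (1.60 ± 0.18, limma adjusted p = 0.0032). Cyp1b1, an Ahr-inducible enzyme of stromal cells, read 6.48 and 7.69 in ileum against 5.67 and 5.69 in colon, where it was dim (1.41 ± 0.31, limma adjusted p = 0.0400). Cyp2c65 also lay higher in both ileum arrays (3.44 ± 1.37) but did not pass with all arrays (limma adjusted p = 0.210). Without KO DSS replicate 1 its difference was again 3.44. That DSS array is in neither tissue and enters this test through the spread alone.

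On the colonic side, Cyp2d34 was at 6.06 and 5.42 in WT and KO ileum against 10.08 and 9.91 in WT and KO colon, a difference of -4.25 ± 0.20 (limma adjusted p = 9.87e-05). Its KO ileum value lay below the lower quartile. Cyp2d12 was at 4.99 and 4.56 in ileum, below the lower quartile, and at 8.93 and 9.27 in colon (-4.33 ± 0.28, limma adjusted p = 0.00034). Cyp2f2 was at 6.498 and 6.45 in ileum and at 10.90 and 10.23 in colon (-4.09 ± 0.21, limma adjusted p = 0.00013). All 3 were high in both colons and low in both ilea, and in DSS colon Cyp2d34 stayed above 9 while the other 2 were at 7.30 or below. Of the 10 Cyp2d genes 6 were lower in ileum and 1, Cyp2d26, was higher. Of the 9 Cyp4f genes 3 were higher and none lower, and of the 6 Cyp3a genes 1 was higher. The direction of all 19 differences was the same in every alternative fit, but not all were equally firm. Of 17 fits, the main one included, Cyp2d12, Cyp2d34, Cyp2f2, Cyp2u1 and Cyp3a25 passed in 17. Cyp2c66 passed in 9, the fewest, and Cyp1b1 and Cyp2c68 were among those that passed in 12. The difference of Cyp1b1 ran from 0.84 to 1.97 and that of Cyp2c68 from -3.225 to -1.20. The count that passed moved with the arrays used, from 3 higher and 4 lower without KO control colon to 11 higher at most and 10 lower at most. It was 7 and 6 without WT ileum, 4 and 6 without KO ileum, and 5 and 4 without WT control colon.

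**Figure D3:**
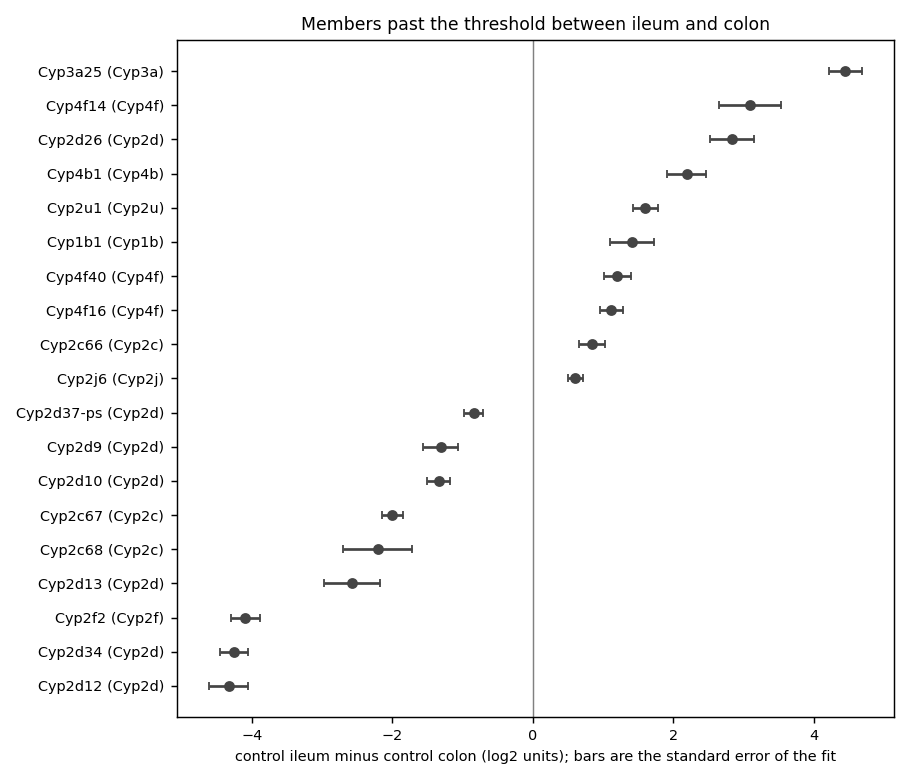
Fitted difference between control ileum and control colon in log2 units (x axis) for the 19 members past the threshold (y axis, subfamily in brackets), with bars for the standard error of the fit. Positive values are higher in ileum, led by Cyp3a25 at 4.45, and negative values higher in colon, led by Cyp2d12 at -4.33.

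No member passed the threshold for genotype. With all 7 arrays, 4 KO and 3 WT, limma called 0 of 69 members and 1 of all 19938 genes (0.00502%), which was not a Cyp gene. At an unadjusted p under 0.05 there was 1 member (1.45%), against 3.61% of all genes. It was Cyp2d10, at -0.51 ± 0.12 (limma adjusted p = 0.989), lower in KO than in WT in ileum (6.23 against 6.72), control colon (7.55 against 8.09) and DSS colon (6.91 and 7.35 against 7.65). The widest fitted values were those of Cyp2c55 (1.19 ± 1.18), Cyp2e1 (-1.19 ± 0.87), Cyp3a11 (0.98 ± 0.48) and Cyp2c65 (0.98 ± 1.06), all with an adjusted p of 0.989 in limma. Within DSS colon limma called 0 members and 0 of all genes (0%). At an unadjusted p under 0.05 there were 0 members (0%), against 776 of all genes (3.89%). The largest values there were those of Cyp2c55 (2.43 ± 1.83), Cyp2c65 (2.22 ± 1.63), Cyp2e1 (0.83 ± 0.96), Cyp2c68 (-0.72 ± 0.48) and Cyp2d12 (-0.66 ± 0.30).

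The test of whether the DSS difference depended on genotype called 0 members and 0 of all genes in limma (0%). At an unadjusted p under 0.05 there were 4 members (5.8%), Cyp2b10, Cyp2e1, Cyp3a25 and Cyp4f18, against 639 of all genes (3.2%). The widest values were those of Cyp2e1 (3.37 ± 1.25), Cyp2c65 (2.08 ± 2.10), Cyp2c55 (2.06 ± 2.36), Cyp2c68 (-1.31 ± 0.62) and Cyp3a11 (-1.17 ± 0.90), each with an adjusted p of 1.00 in limma. Cyp2c55 and Cyp2c65 turned on which KO DSS array was used. Without KO DSS replicate 2 the interaction of Cyp2c55 was 4.52 ± 0.58 (limma adjusted p = 0.0028) and that of Cyp2c65 was 4.27 ± 0.52 (limma adjusted p = 0.0023). Without KO DSS replicate 1 they were -0.40 ± 0.58 and -0.11 ± 0.52, with an adjusted p of 1.00 in limma. Without KO DSS replicate 2, Cyp2c55, Cyp2c65 and Cyp4f14 were also higher, and Cyp2d13 lower, in KO than in WT DSS colon. In that fit limma called 279 of all genes for the interaction and 538 for KO against WT in DSS colon, against 0 and 0 with both replicates. With either KO DSS array left out every group holds 1 array, so the DSS colon contrast is 1 array against 1 array. Its spread then comes from other groups, on 1 residual degree of freedom, and the lone arrays are assumed to vary like them.

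Cyp2e1, which oxidises ethanol and other small molecules, showed a gap between the control colons. It was at 10.06 in WT but 5.79 in KO control colon, the latter below the lower quartile of its array. This sets 1 array against 1 array, and Cyp2e1 was the only member (1.45%, background 0.461% of all genes) more than 2-fold apart there (0.286% of all genes were lower and 0.176% higher). In ileum it was at 9.90 in WT and 9.09 in KO, and in DSS colon at 5.46 in WT and 6.84 and 5.75 in KO replicates 1 and 2. The KO control colon therefore lay with the DSS arrays, and the WT control colon with the ileum arrays. Markers of fat cells ran beside it. The mean of 7 adipocyte genes was 9.11 and 8.81 in WT and KO ileum, 8.31 in WT and 6.93 in KO control colon, and 6.56, 7.51 and 6.74 in WT DSS and KO DSS replicates 1 and 2. The adipokine gene Adipoq was at 7.92 in WT and 6.20 in KO control colon, and 1 of the 7 genes lay below the lower quartile on each colon array and none on the ileum arrays. The part of attached fat in the Cyp2e1 values was not tested. Of the 9 hepatocyte genes measured, 7 or 8 lay below the lower quartile on every array, and albumin (Alb) was at 5.97 in WT and 6.69 in KO control colon.

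**Figure D4:**
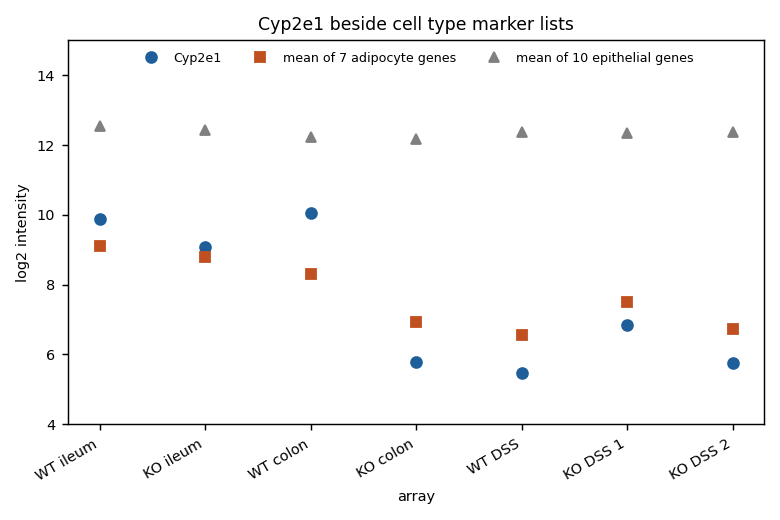
Log2 intensity (y axis) on each of the 7 arrays (x axis) of Cyp2e1 (circles), the mean of 7 adipocyte genes (squares) and the mean of 10 epithelial genes (triangles). Cyp2e1 and the adipocyte mean are both lower in KO than in WT control colon, 5.79 against 10.06 and 6.93 against 8.31, while the epithelial mean stays between 12.17 and 12.56.

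In control ileum 6 members were more than 2-fold higher in the KO than in the WT array (8.70%, background 0.622%) and none was more than 2-fold lower (background 0.266%). This sets 1 array against 1 array and has no test. Cyp3a11, a Pxr target and a main Cyp3a enzyme of mouse liver, was at 7.78 in KO and 4.99 in WT ileum. On the other 6 arrays it lay between 4.24 and 4.99, below the lower quartile, so KO ileum was the single array with clear signal. Cyp2c55 (8.38 against 6.96), Cyp2c68 (8.83 against 7.35), Cyp4b1 (9.38 against 8.15), Cyp1b1 (7.69 against 6.48) and Cyp2c65 (10.84 against 9.79) followed. In control colon the KO array was lower than WT for Cyp2c55 (-0.68), Cyp2c68 (-0.31) and Cyp2c65 (-0.76), and within 0.1 log2 units of it for Cyp3a11, Cyp4b1 and Cyp1b1. The means of 8 fibroblast genes (9.78 against 9.14) and 7 endothelial genes (8.33 against 7.78) were also higher in KO than in WT ileum. So were those of 9 macrophage genes (8.20 against 7.62) and 6 lymphocyte genes (8.28 against 7.77), and that of 12 small intestinal enterocyte genes was 11.20 against 10.94. Other means were lower in KO than in WT ileum. They were those of 12 smooth muscle genes (10.52 against 10.77), 7 adipocyte genes (8.81 against 9.11), 9 colonocyte genes (8.69 against 9.20) and 10 epithelial genes (12.43 against 12.56). The part of these cell types in the Cyp differences was not tested.

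**Figure D5:**
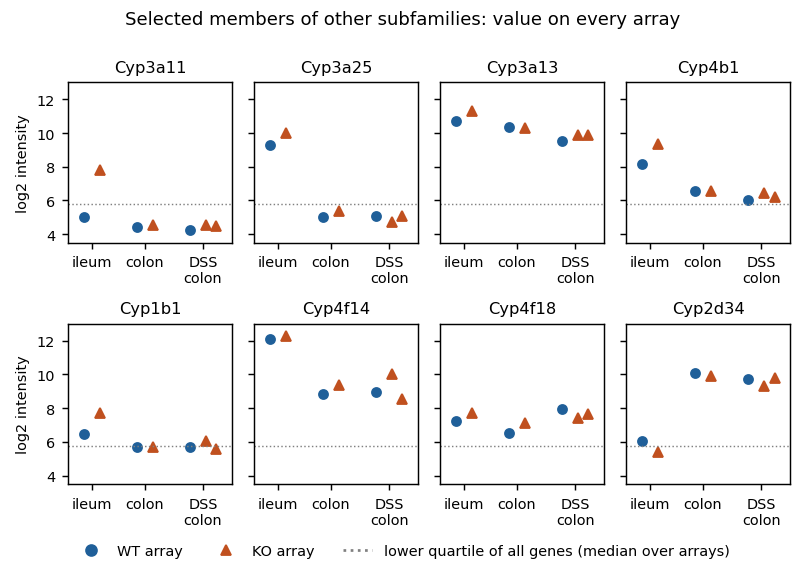
Log2 intensity of 8 members, 1 panel per gene, with control ileum, control colon and DSS colon on the x axis, circles for WT and triangles for KO arrays, and a dotted line at the lower quartile of all genes. Each point is 1 array. Cyp3a11 stands out in KO ileum alone (7.78), Cyp3a25, Cyp4b1 and Cyp4f14 are highest in both ilea, and Cyp2d34 is above 9 in all 5 colon arrays.

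Some genes that work with these enzymes also passed the test, which called 10.6% of all genes with DSS and 9.16% between tissues. These lists were chosen with earlier results of these data known. Of 7 listed electron donors and partners 6 were measured, and Por was not among them. In DSS colon 1 of the 6 rose, the reductase Cyb5r1 (0.50 ± 0.11). In ileum 2 were higher, Pgrmc1 (0.95 ± 0.13) and cytochrome b5 Cyb5a (0.68 ± 0.14). Of 7 haem synthesis genes 1 rose with DSS, Alas1, the first and rate-limiting enzyme (1.12 ± 0.17, limma adjusted p = 0.0144), and none differed between tissues. Of 21 receptors and regulators 1 rose, the bile acid receptor Nr1h4 (1.16 ± 0.17), and 1 fell, the vitamin D receptor Vdr (-0.71 ± 0.12). Ahr (-0.32 ± 0.15), Nr1i2 (-0.31 ± 0.13), Nr1i3 (-0.32 ± 0.18) and Hnf4a (-0.27 ± 0.13) did not pass (limma adjusted p = 0.241, 0.195, 0.351 and 0.245). In ileum 6 of the 21 were higher, among them Hnf4g (2.44 ± 0.15), Nr1h4 (1.97 ± 0.18), Ppara (1.45 ± 0.16) and Rxra (1.18 ± 0.16), and 1, Pparg, was lower.

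Among genes that share these regulators, 3 of 11 other Pxr and Car targets fell in DSS colon and none rose. They were the efflux pump Abcb1a (-2.44 ± 0.46) and the glutathione transferases Gstm1 (-1.55 ± 0.27) and Gstm3 (-1.55 ± 0.24), and the median of the list was -0.51, where 3.43% of all genes fell. Between tissues 3 of the 11 were higher in ileum, the export pump Abcc2 (3.67 ± 0.35), Aldh1a1 (2.17 ± 0.36) and Sult2b1 (1.77 ± 0.16), and 2 were lower, Gstm1 (-1.64 ± 0.30) and Gstm3 (-1.69 ± 0.26). Abcb1a was at 11.90 and 11.25 in WT and KO control colon and at 8.63, 10.12 and 8.75 in WT DSS and KO DSS replicates 1 and 2, so KO replicate 1 again lay nearest to the controls. Of 4 other Ahr targets none passed in either comparison. Of 14 other Ppara targets 1 fell with DSS and none rose, with a median of 0.05, and 6 were higher in ileum, led by Vnn1 (5.73 ± 0.26). Of 19 cytochrome P450 genes outside families 1 to 4, 2 fell with DSS, the sterol hydroxylases Cyp39a1 (-1.10 ± 0.21) and Cyp27a1 (-1.09 ± 0.19), with a list median of -0.08, and none differed between tissues. Of 13 arachidonate enzymes 3 rose with DSS, the phospholipase Pla2g2a (3.25 ± 0.48), the cyclooxygenase Ptgs2 (2.44 ± 0.28) and Alox5ap (1.03 ± 0.10), and 1 fell, the prostaglandin-degrading Hpgd (-1.02 ± 0.13). In ileum Pla2g2a (3.07 ± 0.52), the epoxide hydrolase Ephx2 (1.303 ± 0.26) and Lta4h (0.81 ± 0.17) were higher and Pla2g4a (-1.11 ± 0.12) was lower. None of the 8 lists had a gene called for genotype.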

How the data were processed

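Biotin-labelled target made from RNeasy-extracted gut RNA (made with Affymetrix's sense target reagents, per the labels) was hybridised to 1 array a sample. The authors deposited 1 linear intensity per probe set and array, from 10.4 to 22236.4. Their summarisation and normalization are not given in the sources used here. Array medians of 121.4 to 126.45 were close, so the values were used as they are, and any change common to every gene could have been removed. Here log2 of each value was taken. Of 35512 probe sets, 21789 had 1 symbol in the platform annotation, which is old, and the one with the highest mean was kept for each of 19938 genes. All 69 Cyp symbols matched RefSeq (GRCm38.p6) by gene identifier, and no filter on low values was applied. The array's build is not given, so coordinates are those of the RefSeq sequences only.

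Models were fitted on all genes with limma 3.58.1 (lmFit, eBayes) in R 4.3.3, two-sided, with Benjamini-Hochberg adjustment and a threshold of 0.05. Condition and genotype gave the DSS, tissue and genotype comparisons (3 residual degrees of freedom). A genotype term within DSS colon gave the interaction and the KO against WT comparison there (2 degrees of freedom). Values with ± are log2 differences and the standard error of the fit. A comparison of 1 array with 1 array has no test, and 5 of 6 groups hold 1 array. Members, gene lists and naming rule were chosen with earlier results of these data known. The rule names members past the threshold, at most 10 each way, or else the 5 with the largest difference, the brightest gene of a subfamily, and members whose KO DSS arrays differ by more than 1 log2 unit. From each list at most the 4 largest differences are named, and the regulators Ahr, Nr1i2, Nr1i3 and Hnf4a were added after their values were seen. The scripts were tested on simulated data. Alternatives were quantile normalization, centring, dim genes left out, probe sets averaged or all tested, a variance trend with robust fit, a 6-group model, colon arrays alone, labelled sex as a covariate, an offset of 16 before log2, and leaving out each array. Upstream sequences were aligned with Biopython 1.88 and figures drawn with matplotlib 3.10.9.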

Additional observations from a re-analysis of the deposited data

Results flagged for a closer look

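For 3 members the KO minus WT difference had opposite directions in control ileum and control colon, by more than 0.5 log2 units on each side. Cyp2c55 was 1.41 higher in KO ileum and differed by -0.68 in control colon, Cyp2c65 stood at 1.05 and -0.76, and Cyp2d40 at -0.63 and 0.83. Each value sets 1 array against 1 array, and the difference between the tissues was not tested.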

How the results depend on the processing

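No paired analysis was possible because replicate numbers are given for the KO DSS group alone. Leaving out 1 array gave 0 to 2 members higher and 3 to 17 lower with DSS, 3 to 11 higher and 4 to 10 lower in ileum, 0 to 2 higher for the interaction, and 0 to 3 higher and 0 to 1 lower for KO against WT in DSS colon. A 6-group model gave 4 lower with DSS, and 6 higher and 5 lower in ileum. Colon arrays alone gave 7 lower with DSS, and labelled sex as a covariate gave 1 higher, Cyp4f18. By the labels both KO control arrays and WT DSS colon are male and the other arrays female. Added to condition and genotype, labelled sex is therefore the same term as the genotype by DSS interaction. That fit does not adjust for the sex shown by Xist and the Y-linked genes. The fit without WT DSS colon had no value for the interaction or for KO against WT in DSS colon. All other counts of members called stayed within 1.5 times the reported one. None of the 11 DSS and 19 tissue differences past the threshold changed direction. Over the alternative fits, 52 DSS and 54 tissue values lost the threshold while 134 and 249 kept their side. Some of these fits repeat another or cannot change a member's difference, so the values are not separate checks. For genotype, the interaction and KO against WT in DSS colon, the 5 members with the largest differences were followed. Leaving out 1 array turned 7 of their values. Members not called for DSS or tissue were not followed in this count. The DSS difference of Cyp2c65, which turned as given above, is therefore not part of it. The genotype difference of Cyp2e1 ran from -2.54 to 0.13 (the latter without either control colon). The interaction ran from -0.11 to 4.27 for Cyp2c65 and from -0.40 to 4.52 for Cyp2c55 (without KO DSS replicate 1 and 2), and from -2.51 to 0.18 for Cyp3a11 (the latter without either ileum). KO against WT in DSS colon ran from -0.03 to 4.89 for Cyp2c55, negative at -0.031 without KO DSS replicate 1. The cause was not tested. Probe sets below the lower quartile limit what can be seen for 31 of 69 members.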

Other observations

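The 7 probe sets with several symbols were used in no comparison. The one shared by Cyp2c40, Cyp2c67, Cyp2c68 and Cyp2c69 was at 9.90 and 9.69 in WT and KO control colon and at 6.78, 7.35 and 7.00 in WT DSS and KO DSS replicates 1 and 2, with 7.42 and 8.48 in WT and KO ileum. A probe set shared by Cyp3a25, Cyp3a57 and Cyp3a59 was at 7.29 and 8.05 in WT and KO ileum and between 4.08 and 4.31 on the 5 colon arrays. The pair of probe sets shared by Cyp3a41a, Cyp3a41b and Cyp3a44, one of them also by Cyp3a11, were at 5.19 and 5.15 in WT ileum, at 5.97 and 6.12 in KO ileum and between 4.20 and 4.45 on the colon arrays. The one shared by Cyp4v3 and its neighbour Klkb1 was at 8.73 and 8.95 in WT and KO ileum, 7.30 and 7.14 in the WT and KO control colons and 6.44, 6.51 and 6.55 in WT DSS and KO DSS replicates 1 and 2. The 2 others, for Cyp2a and Cyp4a genes, lay between 4.60 and 5.40 on all arrays. Which of the genes gave the signal of a shared probe set cannot be told apart.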
